A study of Rattus norvegicus with 32 samples.

Results

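Thiamine, vitamin B1, is carried into cells by members of the Slc19 family and is used there, as thiamine diphosphate, by a handful of enzymes of carbohydrate and amino acid metabolism. The 7 genes described here were named as a list: the 3 Slc19 carriers Slc19a1, Slc19a2 and Slc19a3, the hydrolase gene Thtpa, and the thiamine-dependent enzyme genes Tkt, Pdha1 and Ogdh. All 7 were found by symbol among the 22587 genes of the deposited table. The list was chosen by name with earlier results of these data known, and the record does not say which comparison was in view. Slc19a3 is the member that stands apart in the ozone-exposed sham libraries, and its counts there are taken as the values the list was selected on. Every comparison that contains those libraries is therefore given as a description, without a p-value for a member.

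The libraries came from Wistar Kyoto rats aged 13 weeks that had received a SHAM operation or Total Bilateral Adrenalectomy (ADREX), the removal of both adrenal glands and so of the main source of corticosterone and adrenaline. Exposure was to Air or to Ozone (0.8 ppm) and lasted 4 hours. mRNA was sequenced from brainstem and hypothalamus. The 8 groups were therefore sham air, sham ozone, ADREX air and ADREX ozone in each tissue, with 4 libraries in each, 32 in all, numbered as in the labels (1 to 4, 17 to 20, 65 to 68 and 81 to 84). The labels do not name individual animals, so the spread between libraries may be partly technical. The same numbers occur in both tissues, so same-numbered libraries may come from the same rat, which the labels do not state. Values are normalized counts as deposited, that is, reads per gene after scaling of each library by the authors.

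Mammals cannot make thiamine, and the brain takes it up across its capillary walls. Slc19a2 and Slc19a3 encode the thiamine transporters ThTR-1 and ThTR-2, of which ThTR-2 has the higher affinity, and inherited loss of SLC19A3 in humans causes a thiamine-responsive disease of the basal ganglia. Slc19a1 encodes the reduced folate carrier, which takes phosphorylated thiamine rather than free thiamine. Inside the cell thiamine is converted to the diphosphate cofactor, and Thtpa removes a phosphate from thiamine triphosphate. Pdha1 encodes the catalytic subunit of pyruvate dehydrogenase at the entry to the citric acid cycle, Ogdh that of the 2-oxoglutarate dehydrogenase complex within the cycle, and Tkt encodes transketolase of the pentose phosphate pathway.

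The windows around the start sites of the 3 carrier genes are shown because their transcripts behaved differently in the same libraries. Each runs from 250 bases before to 50 bases after the start given by RefSeq for GRCr8, which is not the build of the deposited counts (rn6), and is written 5′ to 3′ along the gene. Slc19a3 lies at chr9:91747080-91747379 on the minus strand, Slc19a2 at chr13:79134868-79135167 on the plus strand and Slc19a1 at chr20:11600887-11601186 on the minus strand. Capitals mark matches, on either strand, to 5 short motifs: the glucocorticoid receptor half-site AGAACA, its full palindrome (AGAACA, any 3 bases, TGTTCT), the hypoxia-response cores ACGTG and GCGTG, and the GC box GGGCGG. None of the marked matches in these 3 windows overlap.
Slc19a3: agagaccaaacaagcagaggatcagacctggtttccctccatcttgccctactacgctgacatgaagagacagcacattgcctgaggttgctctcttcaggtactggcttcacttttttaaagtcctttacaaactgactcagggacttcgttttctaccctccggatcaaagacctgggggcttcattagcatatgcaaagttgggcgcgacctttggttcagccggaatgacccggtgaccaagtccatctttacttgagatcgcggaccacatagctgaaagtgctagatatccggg
Slc19a2: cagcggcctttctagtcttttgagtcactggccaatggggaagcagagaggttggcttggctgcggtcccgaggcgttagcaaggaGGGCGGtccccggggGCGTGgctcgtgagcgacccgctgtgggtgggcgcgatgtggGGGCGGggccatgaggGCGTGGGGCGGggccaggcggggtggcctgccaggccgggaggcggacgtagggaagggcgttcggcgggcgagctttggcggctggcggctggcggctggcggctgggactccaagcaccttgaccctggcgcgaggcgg
Slc19a1: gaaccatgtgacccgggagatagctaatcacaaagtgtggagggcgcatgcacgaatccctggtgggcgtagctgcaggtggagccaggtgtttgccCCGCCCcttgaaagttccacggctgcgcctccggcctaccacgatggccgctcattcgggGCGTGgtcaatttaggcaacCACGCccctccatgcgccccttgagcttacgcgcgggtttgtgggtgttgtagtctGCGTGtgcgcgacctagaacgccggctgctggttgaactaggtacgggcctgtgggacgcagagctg
The Slc19a3 window held none of the 5 motifs and had a GC content of 49.7%. The Slc19a2 window held 2 GCGTG and 3 GGGCGG matches at a GC content of 72.7%, and the Slc19a1 window 3 GCGTG and 1 GGGCGG at 62.3%. Among 33365 distinct windows of the same length, 20.6% held AGAACA, 0.0150% (5 windows) the palindrome, 19.3% ACGTG, 29.7% GCGTG and 33.1% GGGCGG. A match is a string of letters and not a known site, and the lack of one says only that the letters are not in this window.

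The libraries held 6436458 to 12391173 reads assigned to genes. Regional markers matched the tissue labels: 15 hindbrain Hox genes summed to 623 to 1829 normalized counts in brainstem libraries and to 0 to 28 in hypothalamus libraries, and 12 hypothalamic regional markers to 182 to 773 and 4951 to 6903. Liver transcripts exceeded 2000 RPM (reads scaled to the library total) in 4 liver-rich libraries: number 18 of both sham ozone groups, and in hypothalamus also number 2 (sham air) and number 68 (ADREX air). The brainstem ADREX ozone library 81 stood apart from the others of its group in several members, and values with and without it are given where a member's result rests on it.

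Slc19a3 was the member with a large difference between groups. In brainstem sham air its normalized counts were 19.4, 21.9, 20.7 and 22.9, and in brainstem sham ozone they were 117.8, 60.9, 77.8 and 74.4 (libraries 17 to 20). Every sham ozone library was thus above every sham air library, and library 17 was the highest of all 32. Group means were 21.2 ± 1.52 in air and 82.7 ± 24.5 in ozone (SD, n = 4 each), a ratio of 3.896. On the log2(value + 1) scale used for all fits, which understates changes of genes with low values, the difference was 1.87 ± 0.31 (SE). In the fit of all 14408 genes the adjusted threshold (0.05, limma, Benjamini-Hochberg) was passed by 0.979% of genes, 1 member among them, and 7.18% of genes had groups that did not overlap, again with 1 member, Slc19a3 in both. As the list was selected on these values, such counts describe the libraries and are no test of Slc19a3, here and in every comparison with sham ozone libraries.

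The same gene was high in the hypothalamus of ozone-exposed sham rats. Sham air libraries held 19.3, 35.5, 20.7 and 17.8 normalized counts of Slc19a3, and sham ozone libraries 73.8, 61.8, 86.4 and 55.9. The groups did not overlap here either, although air library 2 sat above its 3 neighbours. The means were 23.3 ± 8.18 and 69.5 ± 13.5 (SD, n = 4 each), with a ratio of 2.98 and a log2 difference of 1.57 ± 0.34 (SE). Of 14483 genes 1.59% passed the threshold, with 1 member among them, and 9.62% had groups that did not overlap, also with 1 member, counts that are again a description. The first count rested on most of the libraries: none of the 7 members was past the threshold without sham air library 1, 3 or 4 or without sham ozone library 17, 19 or 20, while the log2 difference stayed between 1.46 and 1.78 with any 1 library left out. Without the liver-rich libraries the Slc19a3 difference was 2.004 ± 0.34 in brainstem and 1.83 ± 0.39 in hypothalamus. Between the tissues, the sham ozone difference was lower by 0.30 ± 0.46 in hypothalamus, and 0% of 14533 genes were called by limma for that contrast, with no member among them.

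**Figure D1:**
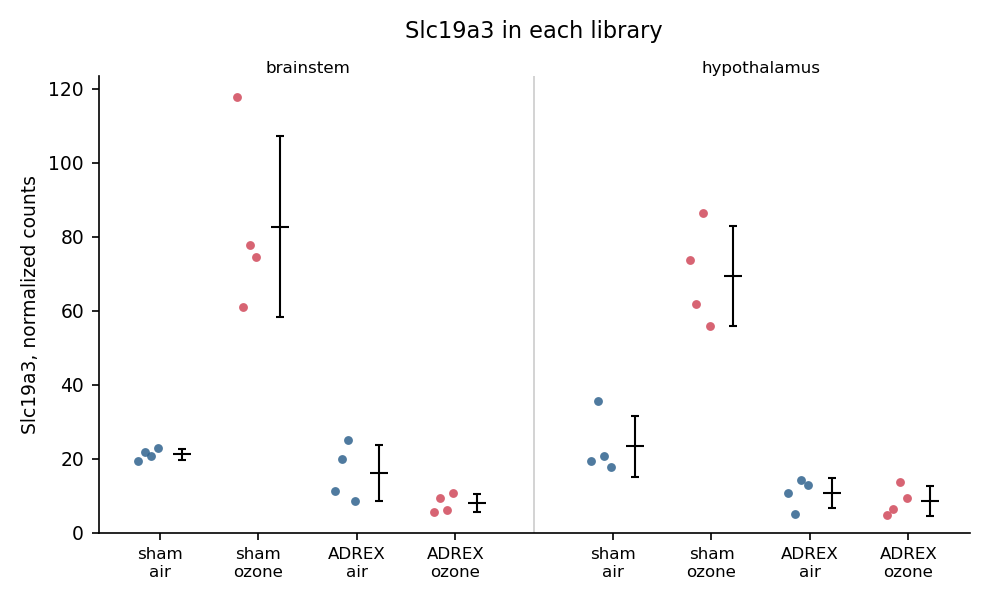
Normalized counts of Slc19a3 (vertical axis, linear) in each of the 32 libraries, by group and tissue; points are libraries (blue air, red ozone) and the black bars show the group mean ± SD, n = 4. Sham ozone libraries lie between 55.9 and 117.8, and all other libraries at or below 35.5.

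After adrenalectomy Slc19a3 was low with either exposure. In brainstem, ADREX air libraries held 11.4, 19.9, 24.999 and 8.66 normalized counts and ADREX ozone libraries 5.61, 9.44, 6.14 and 10.6. In hypothalamus the values were 10.8, 5.02, 14.2 and 13.0 in ADREX air and 4.70, 6.29, 13.8 and 9.38 in ADREX ozone. No adrenalectomized library came near the sham ozone range in either tissue. These are small numbers of reads, 5 to 24 per ADREX library against 55 to 108 per sham ozone library, so counting error alone is a large share of the values in the ADREX groups.

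Under ozone, ADREX rats therefore had less Slc19a3 transcript than sham rats. The brainstem means were 7.95 ± 2.46 and 82.7 ± 24.5 (SD, n = 4 each), a ratio of 10.4 between sham and ADREX, with a log2 difference of -3.22 ± 0.31 (SE). In hypothalamus the means were 8.53 ± 3.99 and 69.5 ± 13.5, a ratio of 8.14 and a log2 difference of -2.96 ± 0.34. The share of all genes past the threshold was 2.44% in brainstem and 2.24% in hypothalamus, and the share with groups that did not overlap was 7.29% and 6.64%, with 1 member in each count, which describes values that enter the selection. When hypothalamus sham ozone library 18, a liver-rich one, was left out, 2 members were past the threshold, the second being Pdha1 with a log2 difference of -0.26 ± 0.07. With any 1 hypothalamus library left out, 198 to 584 of all genes were past it, against 325 with all libraries. This count of members is likewise a description. The Slc19a3 difference between the ozone responses of ADREX and sham rats was -2.75 ± 0.44 in brainstem, where 0.201% of all genes were past the threshold, and -1.88 ± 0.48 in hypothalamus, where 0.138% were. These differences contain the same sham ozone values and are given without a test.

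Between operations in air, and between exposures in ADREX rats, Slc19a3 did not pass the test. In air, ADREX rats had a log2 difference from sham of -0.48 ± 0.31 in brainstem (95% interval -1.13 to 0.18, adjusted p = 0.9998, limma), and the groups overlapped. In hypothalamus it was -1.08 ± 0.34 (95% interval -1.80 to -0.35, adjusted p = 0.768, limma), with all 4 ADREX libraries below all 4 sham libraries. Over all alternative settings the hypothalamic value ran from -1.23 to -0.78 and its adjusted p from 0.488 to 0.9996. Ozone in ADREX rats gave -0.88 ± 0.31 in brainstem (95% interval -1.53 to -0.22, adjusted p = 0.801, limma) and -0.31 ± 0.34 in hypothalamus (95% interval -1.04 to 0.41, adjusted p = 0.753, limma). The brainstem value ran from -1.12 to -0.64 over the alternatives, with adjusted p from 0.446 to 0.994. Its sign was opposite to that in sham rats, and the ADREX air and ADREX ozone libraries overlapped.

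Ordered by mean, the 8 groups ran from brainstem sham ozone and hypothalamus sham ozone through hypothalamus sham air, brainstem sham air, brainstem ADREX air, hypothalamus ADREX air and hypothalamus ADREX ozone to brainstem ADREX ozone. Among neighbours in this order, only the step from hypothalamus sham ozone to hypothalamus sham air separated the libraries of the 2 groups without overlap. Slc19a3 passed the filter on low values (a mean of 10 or more over the libraries of a tissue) also without its high group, at 15.1 in brainstem and 14.2 in hypothalamus, and the 6 other members passed far above it.

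Endothelial transcripts moved in the same groups, in the other direction. The 10 endothelial markers found in the table (of 13 listed, none at 0) summed to 5059 to 5156 normalized counts in brainstem sham air, 3262 to 4280 in sham ozone, 5255 to 6248 in ADREX air and 5188 to 5623 in ADREX ozone. In hypothalamus the sums were 3683 to 3879, 2384 to 3195, 3638 to 4594 and 3902 to 4089 in the same order. In sham ozone against sham air, 3 of the 10 fell in each tissue, with a median log2 change of -0.58 in brainstem and -0.44 in hypothalamus. Of all genes 0.979% and 1.59% were called there. In ADREX against sham under ozone 6 of 10 were higher in each tissue, where 2.44% and 2.24% of all genes were called. These comparisons contain the sham ozone libraries, so the marker counts in this paragraph are descriptions. Other marker lists also held genes that differed between ADREX and sham under ozone: 2 of 10 oligodendrocyte markers were higher in brainstem and 5 of 10 in hypothalamus (medians 0.08 and 0.30), and 1 of 10 microglia markers, Aif1, was higher in brainstem. Of 9 astrocyte markers 1 was higher in each tissue, Gfap in brainstem and Aqp4 in hypothalamus, and 1 was lower in each, Gjb6, at -1.32 ± 0.22 and -0.91 ± 0.16. Gjb6, which encodes the gap junction protein connexin 30, was also higher with ozone in sham hypothalamus (0.73 ± 0.16). Microglia marker sums in brainstem were 2124 to 2184 in sham air, 1797 to 2076 in sham ozone, 2122 to 2343 in ADREX air and 2245 to 2379 in ADREX ozone. Red blood cell transcripts had median sums of 1155 in sham ozone and 315 in ADREX ozone in brainstem, and of 725 and 227 in hypothalamus, with overlapping libraries. The 14 mural and fibroblast markers had median log2 changes of -0.15 in brainstem and 0.13 in hypothalamus with ozone in sham rats. Fewer cells of a type and less RNA per cell cannot be told apart in such tissue pieces, and the part of these marker changes in the Slc19a3 result was not tested.

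The second thiamine transporter did not show the pattern of Slc19a3. Slc19a2 normalized counts in brainstem were 247.7, 293.7, 239.6 and 238.0 in sham air and 270.5, 280.8, 274.0 and 233.7 in sham ozone. The ADREX air libraries held 287.8, 259.2, 269.3 and 276.0, and the ADREX ozone libraries 150.1, 279.7, 247.2 and 303.8. Library 81 was the low value of the last group, and otherwise the 4 groups overlapped. In hypothalamus the group means of Slc19a2 were 207.3 ± 14.2 in sham air, 187.0 ± 12.2 in sham ozone, 182.3 ± 17.9 in ADREX air and 167.6 ± 13.7 in ADREX ozone (SD, n = 4 each). The log2 change with ozone in sham rats was 0.06 ± 0.17 in brainstem (95% interval -0.29 to 0.41). In hypothalamus it was -0.15 ± 0.10 (95% interval -0.36 to 0.06). These comparisons contain the sham ozone libraries, so the intervals are a description. Ozone in ADREX rats gave -0.20 ± 0.17 for Slc19a2 in brainstem (adjusted p = 0.834, limma), and 0.02 ± 0.10 without library 81 (adjusted p = 0.981, limma).

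Slc19a1, the folate carrier, was likewise without a call within either tissue. Its brainstem means were 111.2 ± 20.7, 115.2 ± 19.6, 116.7 ± 17.1 and 95.2 ± 19.9 normalized counts in sham air, sham ozone, ADREX air and ADREX ozone (SD, n = 4 each). Hypothalamus means were 92.1 ± 5.38, 100.7 ± 15.9, 95.7 ± 23.6 and 95.3 ± 18.03 in that order. The ranges of the 4 groups overlapped in both tissues. Its log2 change with ozone in sham rats was 0.06 ± 0.18 (95% interval -0.33 to 0.44) in brainstem and 0.12 ± 0.16 (95% interval -0.23 to 0.47) in hypothalamus.

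Thtpa, whose product hydrolyses thiamine triphosphate, varied little. Brainstem libraries held 873.5, 828.0, 787.2 and 787.6 normalized counts in sham air, 795.1, 756.0, 761.6 and 770.9 in sham ozone, 722.3, 770.9, 727.2 and 748.9 in ADREX air, and 857.6, 768.3, 768.6 and 830.6 in ADREX ozone. All 4 ADREX air libraries were below all 4 sham air libraries, and the other groups overlapped. Thtpa was the 1 member of 7 with such a separation in that comparison, against 3.3% of all genes. The log2 difference was -0.14 ± 0.08 (95% interval -0.30 to 0.02, adjusted p = 0.9998, limma), so it did not pass. Ozone went with a Thtpa log2 change of -0.09 ± 0.08 in sham and 0.12 ± 0.08 in ADREX brainstem, values of opposite sign whose 95% intervals both include 0. In hypothalamus the group means lay between 688.4 and 732.0.

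Tkt, the transketolase gene, had brainstem means of 2401 ± 256, 2195 ± 141, 2314 ± 199 and 2205 ± 303 normalized counts in sham air, sham ozone, ADREX air and ADREX ozone (SD, n = 4 each). In hypothalamus they were 1836 ± 114, 2006 ± 253, 2069 ± 88.0 and 2316 ± 290. The lowest and the highest hypothalamic means belonged to sham air and ADREX ozone. Log2 changes with ozone in sham rats were -0.13 ± 0.11 in brainstem (95% interval -0.36 to 0.11) and 0.12 ± 0.10 in hypothalamus (95% interval -0.08 to 0.32). In air, ADREX hypothalamus differed from sham by 0.17 ± 0.10 (95% interval -0.03 to 0.37, adjusted p = 0.915, limma), and the groups overlapped.

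Pdha1 and Ogdh, the catalytic subunit genes of the 2 large thiamine-dependent dehydrogenase complexes of mitochondria, also had no call within a tissue. Pdha1 means in brainstem were 1950 ± 258, 1996 ± 149, 2027 ± 192 and 1995 ± 458 normalized counts in sham air, sham ozone, ADREX air and ADREX ozone. Hypothalamic means were 1842 ± 64.2, 1731 ± 253, 1636 ± 61.9 and 1543 ± 89.3 (SD, n = 4 each). In hypothalamus the 4 ADREX air libraries (1551, 1689, 1632 and 1673) were all below the 4 sham air libraries (1786, 1786, 1900 and 1894). Pdha1 and Slc19a3 were the 2 members separated in that comparison, against 5.11% of all genes, and the Pdha1 difference of -0.17 ± 0.09 did not pass (95% interval -0.36 to 0.02, adjusted p = 0.915, limma). The pseudogene Pdha1l1 has a row of its own in the table, with 206.4 to 1531 normalized counts, and no source states how reads shared between it and Pdha1 were assigned, so Pdha1 values are uncertain to that extent.

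Ogdh was even across groups except in 1 library. Brainstem libraries held 3038, 2844, 3047 and 3063 normalized counts in sham air, 3070, 2971, 3047 and 2952 in sham ozone, and 2828, 2854, 2961 and 2869 in ADREX air. ADREX ozone held 4339 in library 81 and 2742, 3022 and 2855 in the other 3. Library 81 was thus far above all other libraries for Ogdh, and it was also the lowest brainstem library for Pdha1 (1397), Slc19a2 (150.1) and the sum of oligodendrocyte markers (284483, against 360812 or more in the other groups), and the highest for Pdha1l1 (1531). With library 81, ozone in ADREX brainstem gave an Ogdh log2 change of 0.15 ± 0.11 (adjusted p = 0.822, limma), and without it -0.00 ± 0.06 (adjusted p = 0.993, limma). Hypothalamic Ogdh means were 2499 ± 105, 2435 ± 101, 2349 ± 171 and 2212 ± 188 in sham air, sham ozone, ADREX air and ADREX ozone (SD, n = 4 each), all with overlapping libraries.

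**Figure D2:**
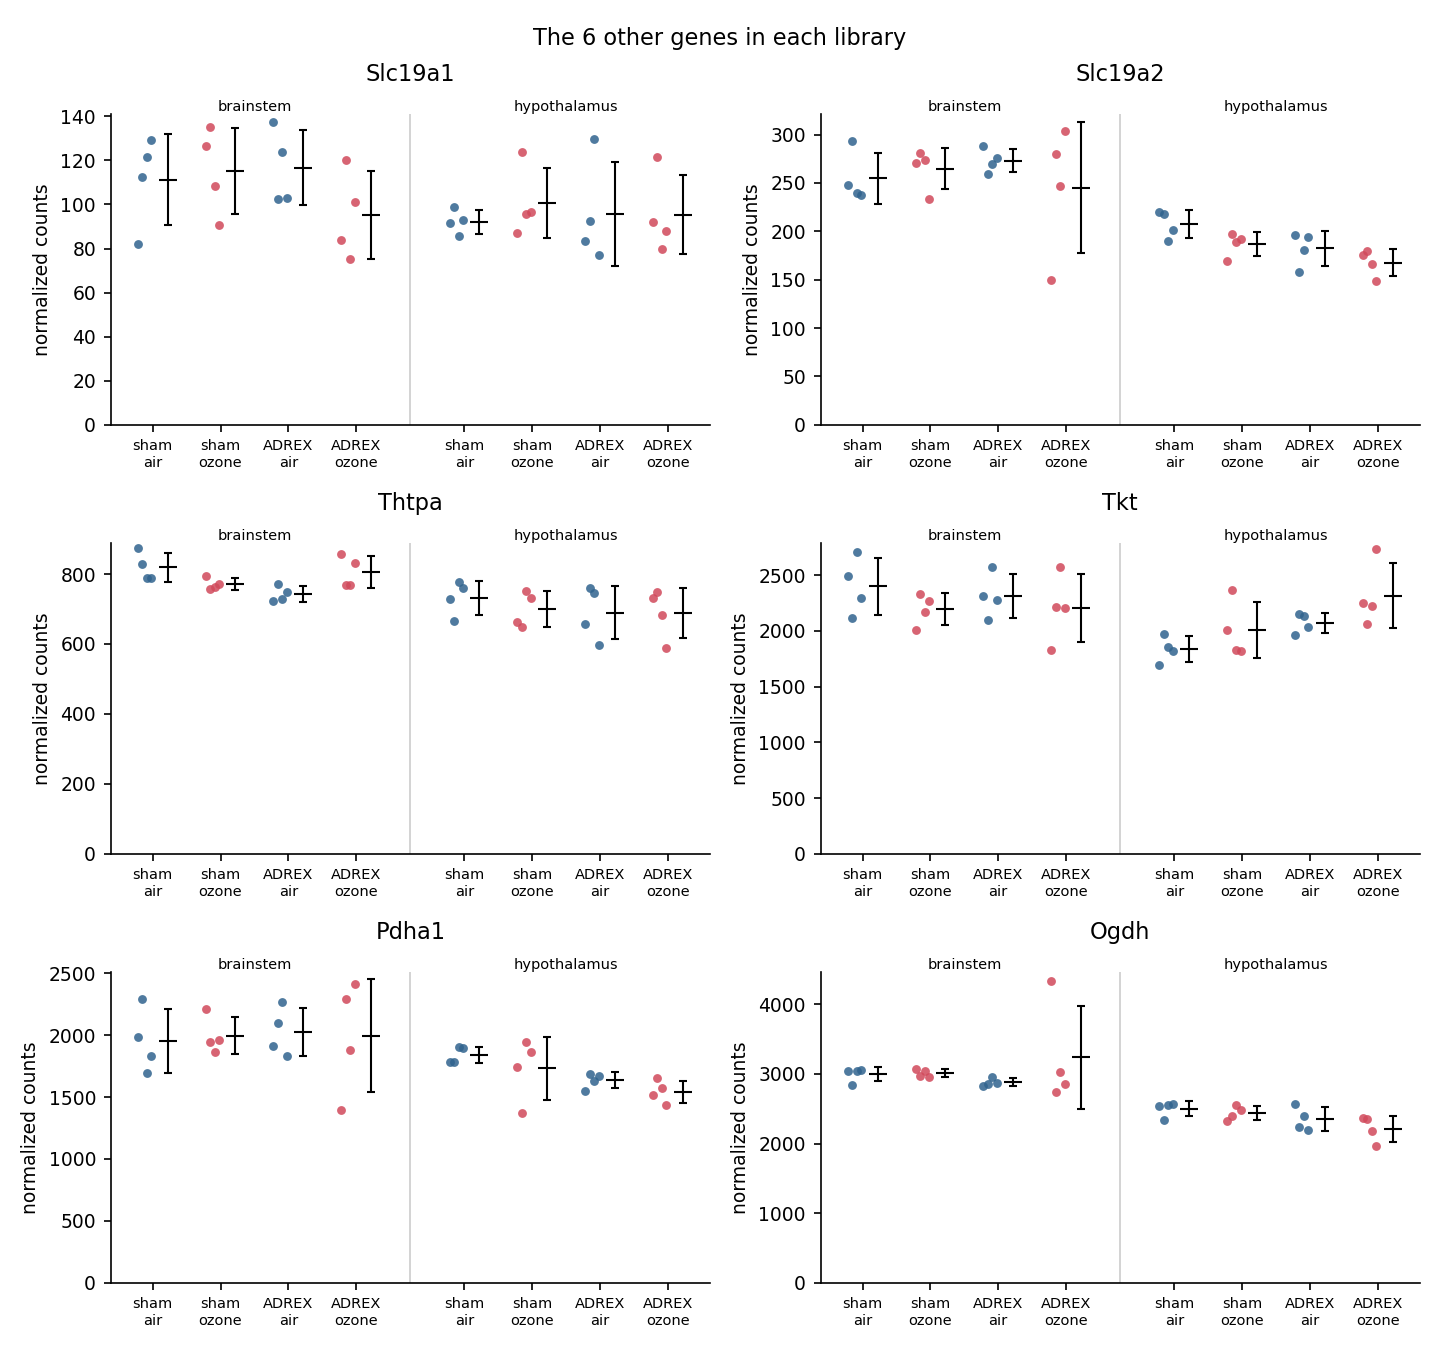
Normalized counts (vertical axes, linear, from 0) of Slc19a1, Slc19a2, Thtpa, Tkt, Pdha1 and Ogdh in each library; points are libraries (blue air, red ozone) and black bars the group mean ± SD, n = 4. Sham air does not overlap ADREX air for Thtpa in brainstem (3.3% of all genes) and Pdha1 in hypothalamus (5.11% of all genes). Nor does it overlap ADREX ozone for Slc19a2, Tkt and Pdha1 in hypothalamus. Sham air and ADREX ozone differ in both operation and exposure. The share of all genes separated between them was not computed, so whether these separations are unusual is not known. All other pairs of groups within a tissue overlap, and the Ogdh point at 4339 is brainstem ADREX ozone library 81.

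Across the comparisons between operations in air and between exposures in ADREX rats, limma called 0 of the 7 members in either tissue. Between operations in air, 0% of genes were called in brainstem and 0.0138% in hypothalamus, and for ozone in ADREX rats 0% in both. At an unadjusted p under 0.05 there were 0 members in brainstem and 1 in hypothalamus between operations in air, and 1 in brainstem and 0 in hypothalamus for ozone in ADREX rats. That 1 member was Slc19a3 in each case. Of all genes, 545 of 14408 in brainstem and 807 of 14483 in hypothalamus were under that limit between operations in air. For ozone in ADREX rats 851 and 1163 were (limma). edgeR and DESeq2 on the recovered reads also called 0 members in these 4 comparisons. For ozone in ADREX rats 0 members had groups without overlap, against 2.19% of genes in brainstem and 3.64% in hypothalamus.

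**Figure D3:**
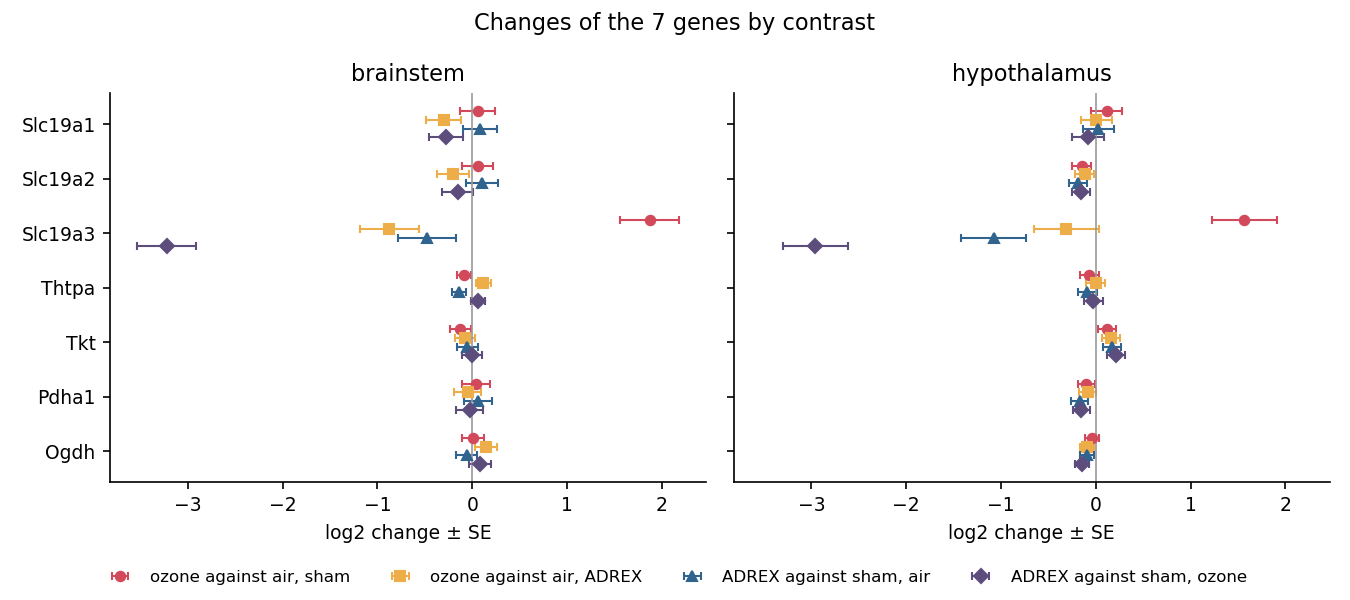
Log2 changes ± SE of the 7 genes (horizontal axis, log2 scale) in 4 comparisons within brainstem (left) and hypothalamus (right), from limma fits on 16 libraries per tissue. Slc19a3 lies at 1.87 and 1.57 for ozone in sham rats and at -3.22 and -2.96 for ADREX against sham under ozone, while the 6 other genes lie between -0.30 and 0.21 in every comparison drawn.

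Between the tissues, 5 of the 7 genes were lower in hypothalamus than in brainstem and none was higher. This comparison averages hypothalamus minus brainstem over the 4 conditions in all 32 libraries, the sham ozone ones included. The members' differences and calls in it are therefore a description, without a p-value for a member. The tissue comparison called 54% of 14533 genes, 27.1% higher and 26.9% lower, so a call here was common among all genes. Slc19a2 ranged from 150.1 to 303.8 normalized counts in brainstem with a median of 269.9, and from 148.9 to 220.2 in hypothalamus with a median of 189.6 (n = 16 each). Most hypothalamic libraries were below most brainstem libraries, with some overlap. The Slc19a2 difference was -0.47 ± 0.07. Ogdh ranged from 2742 to 4339 in brainstem with a median of 2966, and from 1960 to 2566 in hypothalamus with a median of 2378, and was the 1 member whose tissues did not overlap, against 8.95% of genes. Its difference was -0.35 ± 0.05, and -0.31 ± 0.03 without brainstem ADREX ozone library 81.

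The 3 other enzyme genes had smaller tissue differences with overlapping libraries. Pdha1 differed by -0.23 ± 0.06, and its pseudogene row Pdha1l1 by -0.41 ± 0.14. Thtpa differed by -0.16 ± 0.04 and Tkt by -0.15 ± 0.05. Slc19a1 was not past the threshold at -0.18 ± 0.09 (95% interval -0.36 to -0.00), although it was past it under 8 of the alternative settings. Slc19a3 had a difference of -0.16 ± 0.16 (95% interval -0.49 to 0.18) and was not past it either. Many cell type markers moved with tissue, as did 54% of all genes. In hypothalamus 10 of 10 oligodendrocyte markers were lower (median -1.19), with sums of 284483 to 473043 against 127587 to 205399. So were 10 of 10 endothelial, 8 of 14 mural and fibroblast and 6 of 9 astrocyte markers. Others went the other way or were mixed. The astrocyte marker Slc1a3 and the choroid plexus markers Clic6 and Folr1 were higher. Of the neuron markers, Gad1, Gad2, Slc17a6 and Syt1 were higher and Nefl, Nefm, Rbfox3, Slc32a1 and Snap25 lower. Of the microglia markers, C1qc was higher and Aif1, Csf1r and Itgam lower. The part of all these markers in the members' tissue differences was not tested.

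**Figure D4:**
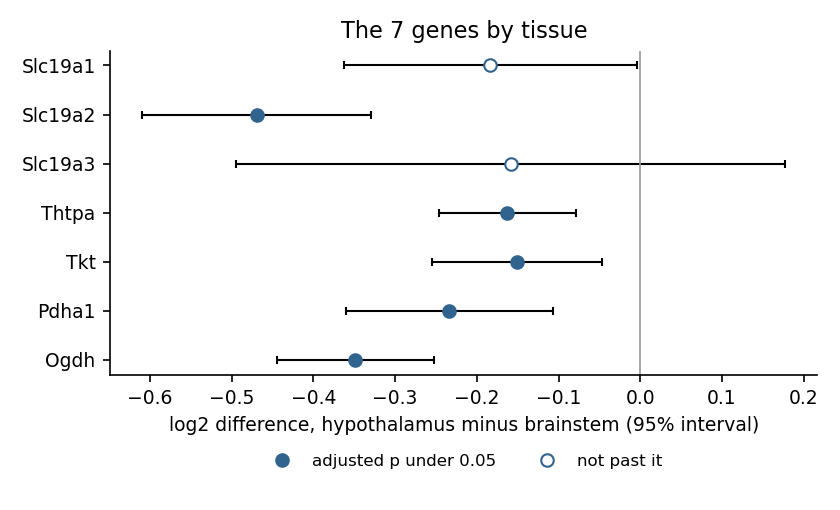
Log2 difference, hypothalamus minus brainstem, of the 7 genes with 95% intervals (horizontal axis), from a limma fit on 32 libraries. Filled points have an adjusted p under 0.05, a description because the fit includes the sham ozone libraries. All 7 estimates are below 0, from -0.47 for Slc19a2 to -0.15 for Tkt, and those of Slc19a1 and Slc19a3 are open.

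Other genes of thiamine handling and of the pathways served by the 3 enzymes were taken from 7 lists. By limma, 50 of these genes were tested in brainstem and 49 in hypothalamus. With ozone in sham rats 1 of 50 was called in brainstem, near the 0.979% of all genes called there. It was H6pd, which encodes the hexose-6-phosphate dehydrogenase that starts the pentose phosphate pathway in the endoplasmic reticulum. H6pd rose from 84.6 ± 10.1 to 133.0 ± 17.6 normalized counts (SD, n = 4 each; log2 change 0.64 ± 0.13, adjusted p = 0.0214, limma). That call was lost without sham air library 1, 3 or 4, without sham ozone library 19 or 20, and with the compared groups fitted alone, with adjusted p up to 0.111. In hypothalamus limma called 0 of 49 for the same comparison, while edgeR and DESeq2 each called 1, Pdk4. An unadjusted p under 0.05 by limma was reached there by 5 of the 49 and by 1818 of all 14483 genes.

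Pdk4 encodes a kinase that phosphorylates and switches off pyruvate dehydrogenase, the enzyme of which Pdha1 is a part. Its means in brainstem were 85.9 ± 21.03, 180.6 ± 73.4, 60.5 ± 10.2 and 55.2 ± 8.06 normalized counts in sham air, sham ozone, ADREX air and ADREX ozone (SD, n = 4 each). In hypothalamus they were 37.6 ± 12.2, 95.1 ± 46.6, 28.9 ± 4.61 and 23.96 ± 4.29. The highest mean was in sham ozone in both tissues. Between ADREX and sham rats under ozone limma called 1 of 50 genes of the lists in brainstem and 1 of 49 in hypothalamus. These counts were near the 2.44% and 2.24% of all genes called. The lists were chosen with earlier results of these data known, so calls in comparisons with sham ozone libraries, that of H6pd included, are descriptions. The called gene was Pdk4, lower in ADREX with log2 differences of -1.61 ± 0.25 in brainstem (adjusted p = 0.00141, limma) and -1.82 ± 0.31 in hypothalamus (adjusted p = 0.00326, limma). Its log2 change with ozone in sham rats was 0.9998 ± 0.25 in brainstem (adjusted p = 0.0828, limma) and 1.22 ± 0.31 in hypothalamus (adjusted p = 0.0588, limma), neither past the threshold, although DESeq2 called it in both tissues.

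Between operations in air and for ozone in ADREX rats, limma, edgeR and DESeq2 each called 0 of these genes in either tissue. At an unadjusted p under 0.05 limma had 1 of 50 in brainstem and 1 of 49 in hypothalamus between operations in air, and 5 and 3 for ozone in ADREX rats. The same limit was passed by 545 of all 14408 and 807 of all 14483 genes between operations in air. For ozone in ADREX rats it was passed by 851 and 1163, so the list counts set the lists apart in neither comparison. The median log2 change over the listed genes was 0.06 in brainstem and 0.09 in hypothalamus for ozone in sham rats, where the median of all genes was -0.00 in both.

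Between tissues, 32 of 49 of the listed genes were called, 11 higher and 21 lower in hypothalamus, with a median of -0.17 against -0.01 for all genes. Of all genes 54% were called, 27.1% higher and 26.9% lower, so the counts by list that follow describe the lists and set none apart. Of 5 other genes of thiamine transport and activation, Acpp, an acid phosphatase that hydrolyses thiamine monophosphate in mouse sensory neurons, was higher by a log2 difference of 2.85 ± 0.19 and Slc44a4, whose human product carries thiamine diphosphate in the colon, by 1.47 ± 0.14. Of 13 genes of pyruvate dehydrogenase and its regulators 2 were higher and 7 lower. They included Pdp1, a phosphatase that switches the complex on (1.93 ± 0.09), Pdk4 (-1.09 ± 0.15), the phosphatase regulator Pdpr (-0.33 ± 0.05) and the mitochondrial pyruvate carrier subunit Mpc1 (-0.59 ± 0.11). Of the 4 other genes listed for the 2-oxoglutarate and 2-oxoadipate dehydrogenases, Mrps36 (-0.57 ± 0.10) was lower. The 2-oxoadipate dehydrogenase gene Dhtkd1 (0.40 ± 0.10) and the Ogdh paralogue Ogdhl (0.17 ± 0.05) were higher. Among 8 pentose phosphate genes 1 was higher and 4 were lower, among them Rbks (-0.48 ± 0.13), Pgls (-0.21 ± 0.06) and Taldo1 (-0.36 ± 0.11), of which Taldo1 was not called without the liver-rich libraries (adjusted p = 0.0515, limma).

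The remaining lists moved in both directions between tissues. Of 5 branched-chain keto acid dehydrogenase genes, Bckdk (-0.30 ± 0.06) and Bckdhb (-0.35 ± 0.07) were lower and Ppm1k (0.30 ± 0.09) was higher, the last not without the liver-rich libraries (adjusted p = 0.0700, limma). Both thiamine-dependent lyase genes, Ilvbl (-0.31 ± 0.07) and Hacl1 (-0.20 ± 0.07), were lower. Of 12 folate genes tested, 3 were higher and 4 lower, with Shmt2 (-0.60 ± 0.07), Mthfd1 (-0.28 ± 0.04), Mthfd2 (-0.59 ± 0.09) and Tyms (0.57 ± 0.13) having the smallest p. All calls named in these tissue lists had an adjusted p under 0.05 by limma.

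The members differed in which genes resembled them over the 32 libraries, by Pearson's r of log2 values after centring on each tissue, among 10474 genes; libraries of a group share their condition, so these are descriptions. Slc19a3 was most like Gpd1, the cytosolic glycerol-3-phosphate dehydrogenase gene (r = 0.93), Gpatch4 (0.92) and Adipor2, an adiponectin receptor gene (0.92). Slc19a2 was most like Omg (0.83), which encodes a myelin glycoprotein, Tram1 (0.82) and Casd1 (0.82), and Slc19a1 like Ogn (0.64), Igfbp2 (0.60) and Colec12 (0.59). The leading genes were Atp6v0d1 (0.81), Slc25a3 (0.79) and Gstm5 (0.79) for Thtpa, and Nkain4 (0.90), Rhoa (0.90) and Tpd52 (0.89) for Tkt. For Pdha1 they were Cep19 (0.92), Aste1 (0.88) and Asns (0.88), and for Ogdh Prrc2b (0.87), Ank1 (0.86) and Camta1 (0.86). No gene was among the 3 most like 2 different members.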

How the data were processed

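RNA-seq libraries of brainstem and hypothalamus were made from poly(A)-selected mRNA and sequenced on a NextSeq 500, per the labels' protocols. The submitters' processing notes name Partek, DESeq2 and rn6; they give no aligner, counting rule or strand setting. The deposited table holds a signal per gene and library, counts scaled by the authors; each column consisted of whole multiples of 1 step (0.623 to 1.25; 100% of values within 0.001), from which whole reads were recovered, 6436458 to 12391173 per library. The labels' names map all 32 columns to samples.

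limma 3.58.1 (R 4.3.3) with a mean-variance trend was fitted to log2(value + 1) of genes with a mean of 10 or more over the libraries of the fit: 16 per tissue with 4 group means, or all 32 with 8 group means for tissue contrasts. Calls were made at a Benjamini-Hochberg adjusted p under 0.05 over all genes tested. edgeR 4.0.16 and DESeq2 1.42.0 on recovered reads, pseudocounts of 0.5 and 5, no filter, a mean of 50, quantile and median-of-ratios scaling, the compared groups alone, and each library or the 4 liver-rich libraries left out were alternatives. The procedure was tested on simulated data.

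The members and lists were chosen with earlier results of these data known. All 7 members are named; of the pathway lists, called genes are named up to the 4 with the smallest p per list and contrast; the 3 genes most like each member were taken among genes with a mean of 50 or more and a settled symbol. Promoter windows were matched by symbol to RefSeq (GRCr8) for all 7 members. Pgd and Tktl2 were not analysed here, and some called genes of the lists are not reported here.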

Additional observations from a re-analysis of the deposited data

Results flagged for a closer look

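Slc19a3 in hypothalamus sham air library 2 was 35.5 normalized counts, far from the 17.8 to 20.7 of the other 3 libraries of its group. This is 1 of the liver-rich libraries, and without those the sham ozone difference in hypothalamus was 1.83 in place of 1.57. Ogdh was low in the libraries numbered 2 of both sham air groups, at 2844 in brainstem (3038 to 3063 in the others) and at 2342 in hypothalamus (2540 to 2560 in the others). These 3 values passed Dixon's 95% limit for 4 samples, among 56 groups checked; chance passes about 1 group in 20, which is about the share seen.

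In brainstem, all 4 ozone libraries lay above the air mean in sham rats and below it in ADREX rats for Slc19a3, and the difference of the ozone responses, ADREX minus sham, was -2.75. For Thtpa the movement was the opposite, below in sham and above in ADREX, with a difference of 0.20. The sham ozone libraries on which the list was selected enter both differences, so both are descriptions, and neither was tested on libraries that the selection did not use.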

How the results depend on the processing

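Of 342 recomputed counts of members called, 328 stayed within 1.5 times the reported count, and of 2381 recomputed log2 changes of members none reversed a call. Slc19a3 has a mean under 50, so with a mean of 50 or more required, 0 members were called for ozone in sham rats, for ADREX against sham under ozone (both tissues each) and for the difference of responses in brainstem, where 1 was reported. With no filter, 0 members were called for ozone in sham hypothalamus (the cause was not tested). DESeq2 called 1 member, against 0, for the difference of responses in hypothalamus. With 1 library left out, members called ranged from 0 to 1 for ozone in sham hypothalamus and from 1 to 2 for ADREX against sham under ozone in hypothalamus; in all other comparisons no such count moved by over 1.5 times. With a pseudocount of 5 the Slc19a3 difference between operations under ozone in brainstem was -2.74, against -3.22. The tissue difference of Slc19a1 (-0.18) passed in 8 alternatives: quantile scaling, the replicate block and 6 left-out libraries.

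Counts over all genes moved more. They ran from 73 to 272 for ozone in sham brainstem (141 reported; 272 without brainstem ADREX ozone library 81) and from 115 to 412 in hypothalamus (230 reported). ADREX against sham under ozone gave 148 to 489 in brainstem (352 reported) and 161 to 591 in hypothalamus (325 reported), and the difference of responses 18 to 75 (29 reported) and 15 to 53 (20 reported). ADREX against sham in air gave 0 to 16 in brainstem (0 reported) and 0 to 15 in hypothalamus (2 reported). In brainstem edgeR called 0 genes and DESeq2 called 16, while 545 were at an unadjusted p under 0.05 by limma. Ozone in ADREX rats gave 0 to 1 in brainstem and 0 to 2 in hypothalamus (0 reported in each by limma, with 851 and 1163 at an unadjusted p under 0.05), and the tissue difference of the sham response 0 to 2 (0 reported, with 416).

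Same-numbered libraries of the 2 tissues did not deviate together throughout: over 16 pairs r ran from -0.53 to 0.61 with a median of 0.03, the highest for number 18, 7 pairs were over 0.1 and 4 correlated best with their own number. With the replicate block 6 members were called between tissues, against 5. Depth limits Slc19a3 most, with 5 to 24 reads in each ADREX library.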
